A study of Mus musculus with 6 samples.

Results

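The respiratory chain of mouse chondrocytes was followed through 102 protein-coding genes, of the 41388 genes counted in each sample. Nuclear members were chosen by symbol, as every protein-coding gene whose name begins with Ndufa, Ndufb, Ndufc, Ndufs, Ndufv, Uqcr or Atp5 or that carries a Cox4 to Cox8 symbol, which gave 89 genes. The 13 protein-coding genes of the mitochondrial genome were the other members. Ndufs5, a subunit of complex I, was measured here together with the genes whose products it is assembled with. The samples were 3 cultures from Postn-/- mice and 3 from wt mice, all male, 21 days old and of the B6/129 strain. Postn-/- mice were homozygous for the germline allele Postn tm1Jmol, which every cell of the animal carries, and wt mice were littermates without it. Chondrocytes came from femoral head cartilage and were kept in culture for 2 days with no treatment in either group. RNA was sequenced, and the comparison asked which transcripts differ at baseline when periostin, a protein of the extracellular matrix, is lost. The methods of the study list 3 mice of each genotype for RNA-seq, but the labels do not tie cultures to mice, so that the spread between samples may be partly technical.

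The respiratory chain sits in the inner membrane of mitochondria. Complex I takes electrons from NADH, complex II from succinate, complex III passes them to cytochrome c and complex IV to oxygen, and ATP synthase makes ATP from the proton gradient that complexes I, III and IV build. Most subunits are encoded in the nucleus and imported, while a small set is encoded in the mitochondrial DNA, so that complexes I, III, IV and V need transcripts from both genomes. Cartilage has no blood vessels, and its chondrocytes are known to draw much of their ATP from glycolysis.

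Library totals ran from 20587640 to 26572260 counts, at which 3 counts correspond to 0.115 to 0.144 normalized CPM (counts scaled to a common library size after correcting each library for its composition by the TMM method). This floor covers counting error only. The 12 chondrocyte markers summed to 36800 to 49300 normalized CPM in Postn-/- and to 31300 to 44800 in wt. Of these the cartilage collagen Col2a1 (15800, 13700 and 18100 in Postn-/- against 8270, 11900 and 9570 in wt; unadjusted p = 0.0125 from edgeR) and Chad (1270, 991 and 1070 against 524, 688 and 865; unadjusted p = 0.00908) lay wholly above wt, and Cnmd lay wholly below it (unadjusted p = 0.132). The 7 fibroblast and perichondrium markers summed to 2130 to 4420 normalized CPM in Postn-/- and to 2790 to 5250 in wt. For the 4 osteoblast markers the sums were 409 to 669 in Postn-/- and 294 to 1100 in wt. Both sums were highest in wt replicate 2, with overlapping groups. The 8 blood and osteoclast markers summed to 373 to 503 in Postn-/- and to 332 to 443 in wt. Most of this was the protease Ctsk at 294 to 435, while the haemoglobin genes Hbb-bs and Hba-a1 were at or near 0. The targeted gene Postn was at 4.66, 4.27 and 5.67 normalized CPM in Postn-/- replicates 1, 2 and 3, against 10.1, 10.3 and 6.90 in wt, lower in each Postn-/- sample. On the first principal component of all tested genes wt replicate 1 lay at 47.7 and the other 5 samples between −17.4 and −0.0175, so that counts of members are also given without this library. Markers of cycling cells, 4 genes led by Top2a, summed to 124 to 313 normalized CPM in Postn-/- and to 269 to 458 in wt, with the highest sum in wt replicate 1. Ccnb1 was at a log2 fold change of −0.75 (unadjusted p = 0.0467 from edgeR), with overlapping groups. Top2a, Cdk1 and Mki67 were at −0.79, −0.63 and −0.49 (unadjusted p = 0.0613, 0.124 and 0.212 from edgeR).

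Of the 89 nuclear members, 85 passed the filter of more than 1 CPM in at least 2 samples, and 4 isoforms described further on did not. Most nuclear members were slightly lower in Postn-/- than in wt. In bulk RNA of this kind, fewer cells of a type and less RNA per cell cannot be told apart. Over the 85 members the log2 fold change (Postn-/- over wt) had a median of −0.16, against 0.00 over all 14533 tested genes. Below 0 were 68 of the 85 (80.0%), against 49.2% of all tested genes. In 29 members (34.1%) the highest Postn-/- sample was under the lowest wt sample, as it was for 6.57% of all tested genes. The Rieske iron-sulfur subunit Uqcrfs1 was the 1 member with every Postn-/- sample above every wt sample, which 7.03% of all tested genes showed.

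At an unadjusted p of 0.05 or less from edgeR's quasi-likelihood test, called the unadjusted limit from here on, 14 nuclear members were lower in Postn-/- (16.5%), against 2.35% of all tested genes. In the other direction 0 members passed this limit, against 3.95% of all tested genes. With Benjamini-Hochberg adjustment over all tested genes the adjusted p of edgeR was 0.05 or less for 0 of the 85 members, and 0.0138% of all tested genes was called. Members with an unadjusted p of 0.05 or less numbered 11 in DESeq2 and 10 in limma-voom without surrogate variables. With surrogate variables they numbered 20 (19 lower and 1 higher). Shares of all tested genes in these 3 fits are not given here. The lowest adjusted p among members in edgeR was 0.717, and DESeq2 and limma-voom called 0 members after adjustment as well. No single member was therefore shown to differ after correction, and the members share samples and cells, so that their common direction is a description of these 6 libraries.

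The count at the unadjusted limit moved with the samples kept. Lower members numbered 4, 13 and 6 without Postn-/- replicates 1, 2 and 3, where 2.02%, 3.81% and 0.849% of all tested genes were lower in the same fits. Without wt replicates 1, 2 and 3 there were 5, 7 and 17, beside 1.96%, 3.45% and 2.31%. In each of the fits without Postn-/- replicate 2, wt replicate 1 or wt replicate 2, 1 member was higher, beside 3.92%, 3.49% and 5.26% of all tested genes. The 5 that remained lower without wt replicate 1 were Ndufs5, Atp5k, Atp5g1, Uqcr10 and Ndufa5, and the 1 higher was Cox4i2. The direction varied less. Without wt replicate 1 the median of the 85 members was −0.10 beside 0.01 for all genes, 69 members (81.2%) were below 0 beside 48.9% of all genes, and 29 members lay wholly below wt (34.1%) beside 11.1% of all genes. By class, 32 of 36 members of complex I, 5 of 8 of complex III, 10 of 16 of complex IV and 16 of 17 of ATP synthase were below 0 without wt replicate 1, and 16, 4, 2 and 7 lay wholly below wt. Across the 6 fits that each left out a library, between 68 and 74 of the 85 members were below 0.

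**Figure D1:**
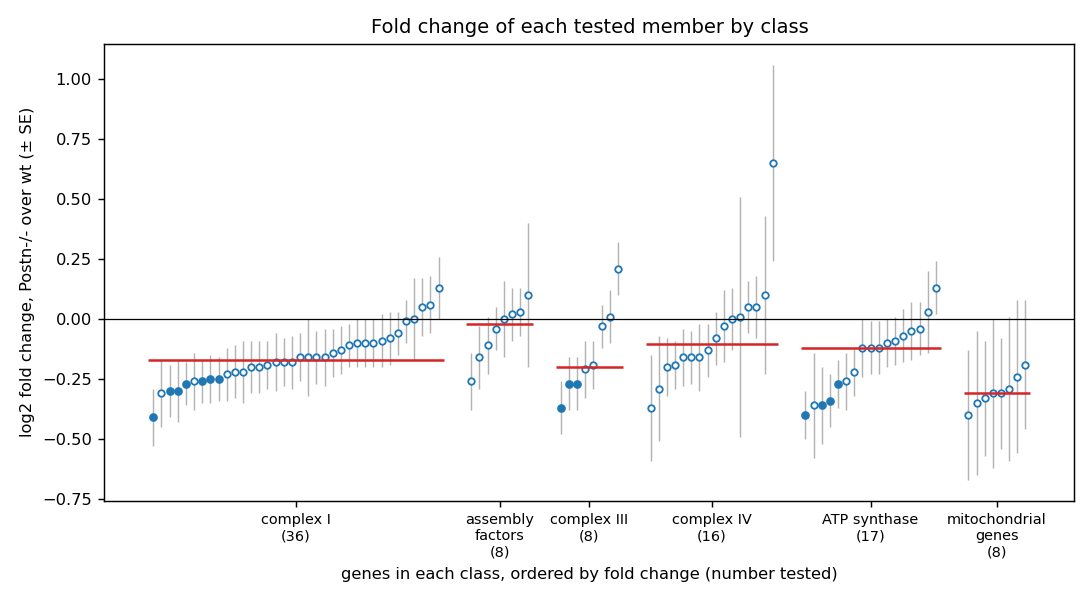
Log2 fold change of each tested member, Postn-/- over wt, with its SE as a grey bar, from edgeR's fit of 3 samples against 3. Filled points have an unadjusted p of at most 0.05, and red lines are class medians, which lay between −0.20 and −0.02 for the nuclear classes and at −0.31 for the mitochondrial genes.

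Complex I is the largest of the complexes, and all 36 of its nuclear members were tested. Their median log2 fold change was −0.17, 32 were below 0, and 16 (44.4%, against 6.57% of all tested genes) did not overlap, with Postn-/- the lower. Lower at the unadjusted limit were 7 (19.4%, against 2.35% of all tested genes), namely Ndufs5, Ndufa5, Ndufv1, Ndufb7, Ndufs6, Ndufc1 and Ndufa2. Without wt replicate 1 there were 2, Ndufs5 and Ndufa5. The log2 fold changes ran from −0.41 for Ndufs5 to 0.13 for the accessory subunit Ndufb2 (unadjusted p = 0.36). The class median of gene-centred log2 CPM was −0.10, −0.07 and −0.07 in the Postn-/- samples and 0.15, 0.09 and −0.02 in wt replicates 1, 2 and 3.

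Ndufs5, an accessory subunit on the intermembrane side of complex I, had the lowest log2 fold change of the 85 tested nuclear members. It was counted with 502, 448 and 411 reads in Postn-/- replicates 1, 2 and 3 against 616, 563 and 580 reads in those of wt. In normalized CPM these were 20.2, 18.2 and 19.6 against 23.7, 25.5 and 27.8. The highest wt sample for Ndufs5 was replicate 3, whereas wt replicate 1 was the highest of all samples for 49 of the 85 members. Leaving out each sample in turn kept the log2 fold change between −0.46 and −0.35. The study itself picked Ndufs5 for real-time PCR as a gene with similar expression in the 2 genotypes. It reported that PCR on chondrocytes of a separate cohort matched its RNA-seq data.

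Part of Ndufs5 cannot be told from a pseudogene by reads of this length. Of the 50-base words of its transcripts, 21.7% also occur in the processed pseudogene BC002163 on chromosome 16 (chr16:42955631-42955949), and reads of 50 bases that match both places could not be assigned uniquely, so that neither gene's count holds them. BC002163 was counted with 245, 304 and 259 reads in Postn-/- and with 255, 285 and 104 reads in wt, where replicate 3 was the lowest of all samples. In wt replicate 3 Ndufs5 was thus highest and its pseudogene lowest. When the uniquely assigned reads of both were summed, the level was 30.0, 30.6 and 31.9 normalized CPM in Postn-/- against 33.5, 38.4 and 32.8 in wt, which still did not overlap. The log2 fold change fell in size to −0.18 (SE 0.11, unadjusted p = 0.147, adjusted p = 0.73 in the edgeR test). Over all settings run, the adjusted p of Ndufs5 was between 0.291 and 0.983. This sum was chosen after the data were seen, and the reads shared by both were not recounted.

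Ndufv1, the core subunit that binds NADH and the flavin, was at 167, 162 and 161 normalized CPM in Postn-/- against 203, 194 and 188 in wt. Each Postn-/- sample lay below each wt sample, and the log2 fold change was −0.26 (SE 0.09, unadjusted p = 0.0237, adjusted p = 0.717). Ndufs6, an accessory subunit of the arm that takes up NADH, was at 76.1, 77.5 and 75.2 in Postn-/- against 93.6, 92.7 and 84.8 in wt. Its Postn-/- samples were close together and all below wt, with a log2 fold change of −0.25 (unadjusted p = 0.0297). Ndufa5, an accessory subunit of the peripheral arm, was at 98.1, 97.5 and 104 in Postn-/- against 123, 120 and 118 in wt. The groups of Ndufa5 were apart by more than the range within either, with a log2 fold change of −0.27 (unadjusted p = 0.0178).

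Ndufb7, an accessory subunit of the membrane arm, was at 119, 134 and 116 normalized CPM in Postn-/- against 162, 152 and 139 in wt, with a log2 fold change of −0.30 (unadjusted p = 0.0264). Ndufc1, a small subunit of the same arm, was at 83.3, 88.9 and 82.5 in Postn-/- against 107, 103 and 92.4 in wt, with a log2 fold change of −0.25 (unadjusted p = 0.0397). Ndufa2, an accessory subunit of the peripheral arm, was at 140, 150 and 162 in Postn-/- against 212, 181 and 162 in wt, so that Postn-/- replicate 3 and wt replicate 3 had nearly the same level. In all 3 genes wt replicate 1 was highest, and for Ndufa2 the log2 fold change of −0.30 (unadjusted p = 0.0465) moved to between −0.39 and −0.19 when 1 sample was left out.

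The assembly factors of complex I, which help to build it without remaining in it, carry Ndufaf symbols and were centred near 0. Of 8 tested, 4 were below 0 (6 without wt replicate 1), the median log2 fold change was −0.02 (−0.04 without wt replicate 1), and 0 passed the unadjusted limit of the edgeR test, near the shares of all tested genes (2.35% lower and 3.95% higher) for 8 genes. Ndufaf2 was lowest at −0.26 (unadjusted p = 0.0575), with 33.3, 39.5 and 34.1 normalized CPM in Postn-/- against 46.4, 42.6 and 39.2 in wt. Its groups met at 39.5 and 39.2. Ndufaf6 was highest at 0.10 (unadjusted p = 0.751), with 4.90, 5.69 and 6.29 in Postn-/- against 3.08, 6.79 and 5.94 in wt. Without wt replicate 1, its lowest sample, the value for Ndufaf6 was −0.18.

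Complex III takes electrons from ubiquinol. Its 8 nuclear members had a median log2 fold change of −0.20, 6 were below 0, 4 lay wholly below wt (50.0%, against 6.57% of all tested genes), and 3 were lower at the unadjusted limit (37.5%, against 2.35%), of which 1, Uqcr10, was left without wt replicate 1. All 3, Uqcr10, Uqcr11 and Uqcrq, are small accessory subunits. Uqcr10 was at 175, 195 and 198 normalized CPM in Postn-/- against 264, 251 and 219 in wt. Its highest Postn-/- sample was below its lowest wt sample, and the log2 fold change was −0.37 (SE 0.11, unadjusted p = 0.0118, adjusted p = 0.717). Uqcr11 was at 81.6, 90.8 and 81.9 in Postn-/- against 111, 102 and 92.4 in wt, with a log2 fold change of −0.27 (unadjusted p = 0.0394). Uqcrq was at 376, 397 and 399 in Postn-/- against 497, 492 and 424 in wt, with a log2 fold change of −0.27 (unadjusted p = 0.0422). For both genes wt replicate 3 was the wt sample nearest to Postn-/-. Uqcrfs1, the Rieske subunit that carries an electron to cytochrome c1, was at 77.1, 72.7 and 74.1 in Postn-/- against 56.6, 72.4 and 65.2 in wt. Its log2 fold change was 0.21 (unadjusted p = 0.112), and Postn-/- replicate 2 was barely above wt replicate 2.

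ATP synthase joins the catalytic head F1, which makes ATP, to the membrane part that holds the rotor. Its 17 members had a median log2 fold change of −0.12, 15 were below 0, and 7 lay wholly below wt (41.2%, against 6.57% of all tested genes). At the unadjusted limit 4 were lower (23.5%, against 2.35%), and 2 of them, Atp5k and Atp5g1, without wt replicate 1. Atp5k, subunit e of the membrane part, had the smallest p of all nuclear members. It was at 52.9, 57.1 and 57.8 normalized CPM in Postn-/- against 77.5, 74.5 and 69.7 in wt. The gap between the groups of Atp5k was wider than the range within each, and the log2 fold change was −0.40 (SE 0.10, unadjusted p = 0.00333, adjusted p = 0.717). Atp5l, subunit g, was at 6.07, 6.47 and 6.15 in Postn-/- against 8.34, 7.83 and 7.81 in wt, for a log2 fold change of −0.36 (unadjusted p = 0.0497). Atp5mpl, a small protein of the membrane part, was at 55.9, 60.6 and 55.0 in Postn-/- against 71.7, 70.9 and 64.2 in wt, for a log2 fold change of −0.27 (unadjusted p = 0.027). In each of these 3 genes wt replicate 1 was highest and the groups did not overlap.

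Subunit c, which forms the rotor ring, is encoded by Atp5g1, Atp5g2 and Atp5g3, whose products differ only in the leader that is cut off on import. Atp5g1 was at 21.3, 22.4 and 22.4 normalized CPM in Postn-/- against 28.8, 28.6 and 26.1 in wt, for a log2 fold change of −0.34 (unadjusted p = 0.0148). Per kilobase of exon Atp5g3 was the most abundant of the 3 at 102 normalized CPM, beside 5.08 for Atp5g1 and 1.18 for Atp5g2. These levels are of uniquely aligned reads, and 0% of the 50-base words of Atp5g3 but 11.1% of those of Atp5g1 and 38.4% of those of Atp5g2 also occur in other genes. Atp5g3 had a log2 fold change of −0.04 (unadjusted p = 0.731), and was at 212, 229 and 216 normalized CPM in Postn-/- against 225, 247 and 204 in wt, with overlapping groups. Atp5b, the catalytic beta subunit of F1, had the highest log2 fold change of the class at 0.13 (unadjusted p = 0.291), with 873, 820 and 832 in Postn-/- against 716, 820 and 775 in wt.

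**Figure D2:**
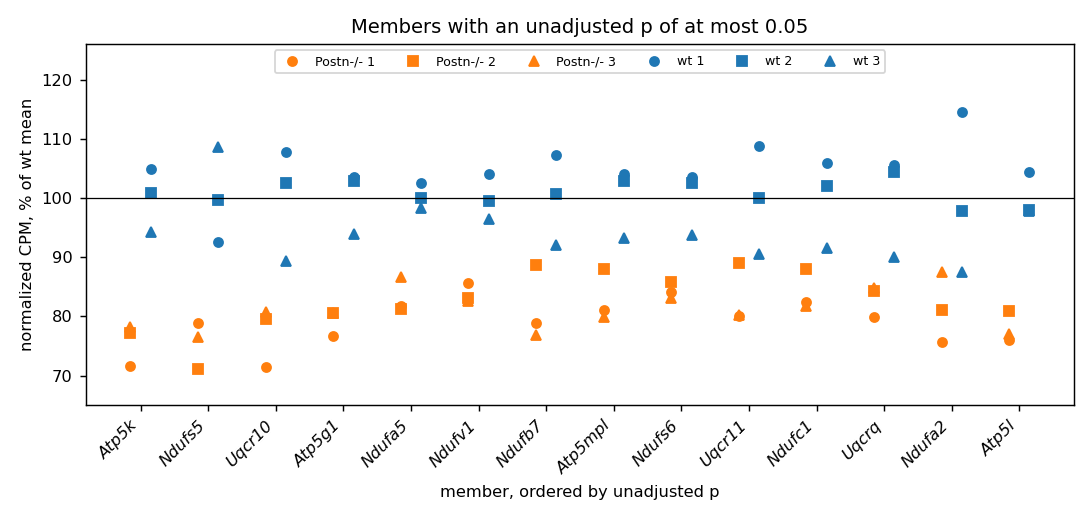
Normalized CPM of the 14 nuclear members with an unadjusted p of at most 0.05 in each of 3 Postn-/- (orange) and 3 wt (blue) samples, as a percentage of the gene's wt mean. In all 14 every orange point lies below every blue one, though in Ndufa2 Postn-/- replicate 3 and wt replicate 3 nearly coincide.

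Promoters of these genes are shown since most members lay on the same side of wt, and for the 3 with the smallest p. They are RefSeq windows on GRCm38.p6 from 250 bases before to 50 bases after the annotated start, read 5′ to 3′ on the gene's strand, which is minus for all 3. Capitals mark matches to CGCANGCG, a core of the binding motif of nuclear respiratory factor 1 (NRF1), an activator of many respiratory chain genes, and to CCGGAAG, a core of the motif of GABPA, another such activator, each searched on both strands.
Atp5k, chr5:108434350-108434649: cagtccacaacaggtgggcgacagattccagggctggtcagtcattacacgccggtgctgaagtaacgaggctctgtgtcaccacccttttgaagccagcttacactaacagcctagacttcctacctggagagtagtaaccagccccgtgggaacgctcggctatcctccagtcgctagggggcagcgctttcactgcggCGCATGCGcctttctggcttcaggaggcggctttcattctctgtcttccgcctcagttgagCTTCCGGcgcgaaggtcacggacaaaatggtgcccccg
Ndufs5, chr4:123718137-123718436: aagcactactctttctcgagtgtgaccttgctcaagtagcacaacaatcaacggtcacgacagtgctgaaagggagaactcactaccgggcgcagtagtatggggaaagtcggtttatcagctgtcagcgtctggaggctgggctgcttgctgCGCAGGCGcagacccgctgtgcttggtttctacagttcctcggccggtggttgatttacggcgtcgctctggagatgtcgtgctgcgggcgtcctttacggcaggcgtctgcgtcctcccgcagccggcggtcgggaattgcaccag
Uqcr10, chr11:4704295-4704594: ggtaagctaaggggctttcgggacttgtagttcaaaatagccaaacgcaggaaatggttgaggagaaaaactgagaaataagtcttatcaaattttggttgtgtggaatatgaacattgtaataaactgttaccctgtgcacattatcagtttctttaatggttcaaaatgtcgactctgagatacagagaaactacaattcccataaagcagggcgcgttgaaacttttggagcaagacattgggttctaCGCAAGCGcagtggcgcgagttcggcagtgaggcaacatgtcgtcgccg

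Each of these windows held the NRF1 letters once, and that of Atp5k held the GABPA letters as well, as CTTCCGG on the other strand. Of the 89 nuclear members 71 had a RefSeq promoter, and a gene was counted when any of its windows matched. The NRF1 letters were in 26 of the 71 (36.6%), against 9.22% of all 27025 genes with promoters and 18.5% of tested ones. GABPA letters were in 16 (22.5%), against 9.93% of all genes and 18.9% of tested ones. AANATGGCG, a core of the YY1 motif, was in 11 (15.5%), against 2.76% of all genes and 5.59% of tested ones. Among the 11 members with a promoter that passed the unadjusted limit, 7 held the NRF1 letters, as did 19 of the other 57 tested members with a promoter. GABPA letters were in 4 of the 11 and 12 of the 57, and YY1 letters in 2 of the 11 and 9 of the 57. These are matches of letters, and binding was not measured.

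Complex IV reduces oxygen. Of its 20 nuclear members, Ndufa4 and Ndufa4l2 included, 16 were tested, 11 were below 0, and the median log2 fold change was −0.11 (−0.06 without wt replicate 1). At the unadjusted limit of the edgeR test 0 passed, and 2 members lay wholly below wt (12.5%), Cox6c and Cox7c. For so few genes both counts are near the shares of all tested genes, which were 2.35% lower, 3.95% higher and 6.57% wholly below wt. Cox7c was lowest at −0.37 (unadjusted p = 0.124), with 8.88, 9.07 and 5.58 normalized CPM in Postn-/- against 9.50, 10.9 and 10.1 in wt. Postn-/- replicate 3 was its lowest sample, and the value was between −0.49 and −0.18 with each sample left out.

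Several subunits of complex IV exist as isoforms with restricted expression, and their levels varied more between samples than those of the widely expressed partners. Ndufa4l2, a hypoxia-induced relative of the complex IV subunit Ndufa4, was at 666, 192 and 623 normalized CPM in Postn-/- against 270, 369 and 306 in wt. Postn-/- replicates 1 and 3 were the highest samples and replicate 2 the lowest. Ndufa4l2 thus had the highest log2 fold change of the tested nuclear members, 0.65 (SE 0.41), with unadjusted p = 0.151 and adjusted p = 0.73 in the edgeR test. Ndufa4 itself was at 198, 245 and 202 in Postn-/- against 275, 230 and 217 in wt, for a log2 fold change of −0.16 (unadjusted p = 0.273). Per kilobase there were 1.72, 0.40 and 1.58 Ndufa4l2 counts for each Ndufa4 count in Postn-/- against 0.503, 0.823 and 0.724 in wt. With 1 sample left out the log2 fold change of Ndufa4l2 ran from 0.37 to 1.03.

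Cox4i2, the isoform of subunit 4 linked to low oxygen and to the lung, was at 220, 180 and 265 normalized CPM in Postn-/- against 329, 124 and 169 in wt. The wt group spanned the whole Postn-/- range, and the log2 fold change was 0.10 (unadjusted p = 0.779). It turned to −0.05 without Postn-/- replicate 3, to −0.17 without wt replicate 2 and to −0.03 without wt replicate 3, and was 0.60 (unadjusted p = 0.0206 from edgeR) without wt replicate 1. Per kilobase Cox4i2 reached 0.806, 0.618 and 1.01 of the level of the widespread Cox4i1 in Postn-/- against 1.00, 0.392 and 0.603 in wt. Cox4i1 was at 538, 572 and 515 normalized CPM in Postn-/- against 644, 620 and 550 in wt, for a log2 fold change of −0.16 (unadjusted p = 0.205).

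Cox6a2, known from heart and skeletal muscle, was at 19.1, 22.3 and 33.5 normalized CPM in Postn-/- against 35.4, 27.7 and 28.6 in wt (log2 fold change −0.29, unadjusted p = 0.213). Its partner Cox6a1 was at 348, 390 and 377 in Postn-/- against 389, 421 and 371 in wt (log2 fold change −0.08, unadjusted p = 0.467), so that per kilobase Cox6a2 made up between 0.0585 and 0.0972 of the Cox6a1 level. The 6 markers of skeletal muscle summed to 19.1, 18.0 and 20.8 normalized CPM in Postn-/- and to 21.8, 31.6 and 28.1 in wt, with each Postn-/- sum below each wt sum. Most of the sum was the troponin Tnnt3 at 9.40 to 13.7 and the actin Acta1, which was at 2.77, 4.51 and 4.43 in Postn-/- against 4.96, 15.9 and 8.15 in wt (unadjusted p = 0.0152), while the troponin Tnnc2 was at 0 in all 6 samples and creatine kinase Ckm at 0.0384 to 0.143. The part of muscle RNA in the level of Cox6a2 was not tested. The other muscle isoforms Cox7a1 and Cox8b were counted with 4 to 11 and 0 to 6 reads a sample. Their partners Cox7a2 and Cox8a had log2 fold changes of −0.16 (unadjusted p = 0.211) and near 0 (unadjusted p = 0.99, with a sign that differed between settings).

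Of the isoforms known from testis, Cox8c and Cox7b2 had few reads and Cox6b2 had more. Cox8c had 9, 11 and 14 reads in Postn-/- against 5, 4 and 7 in wt, and Cox7b2 had 3 to 10 reads a sample. Both were untested, with Cox7a1 and Cox8b, since fewer than 2 samples passed 1 CPM. Cox6b2 was at 1.08, 4.35 and 1.52 normalized CPM in Postn-/- against 2.85, 2.22 and 1.87 in wt, with both the highest and the lowest sample in Postn-/- and a log2 fold change of 0.01 (SE 0.50, unadjusted p = 0.99), whose sign differed between settings. Its partner Cox6b1 had a log2 fold change of −0.13 (unadjusted p = 0.267).

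**Figure D3:**
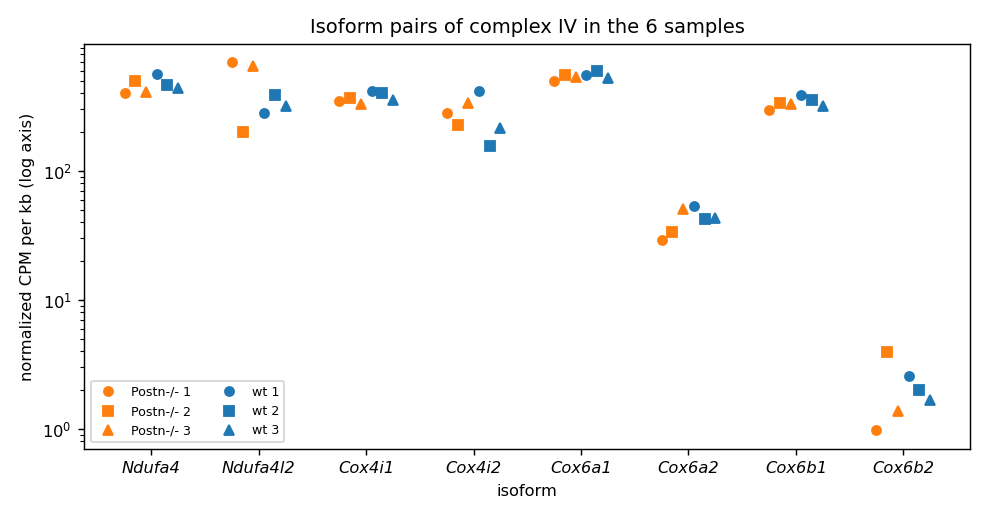
Normalized CPM per kilobase of exon, on a log axis, of 4 pairs of complex IV isoforms in 3 Postn-/- (orange) and 3 wt (blue) samples. Ndufa4l2 and Cox4i2 reach the level of their partners Ndufa4 and Cox4i1 and spread widely between samples, while Cox6a2 and Cox6b2 lie far below Cox6a1 and Cox6b1.

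Among the members that could be counted, those with the highest level per kilobase were the mitochondrial genes mt-Cytb, mt-Nd1 and mt-Co1 at 1120, 923 and 787 normalized CPM per kilobase, followed by the nuclear genes Cox6a1 at 545 and Ndufa4 at 464. Together the 13 mitochondrial genes took 0.516%, 0.249% and 0.464% of the counts in the 3 Postn-/- samples in order, against 0.408%, 0.491% and 0.613% in wt. Postn-/- replicate 2 was the lowest sample by far, and the other Postn-/- samples lay within the wt range. The log2 ratio of the group means was −0.30, and without Postn-/- replicate 2 it was −0.04. The 89 nuclear members took 1.20%, 1.24% and 1.27% in Postn-/- and 1.36%, 1.32% and 1.25% in wt, where wt replicate 3 fell within the Postn-/- range.

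The 8 mitochondrial genes that were tested all had lower means in Postn-/-, with log2 fold changes from −0.40 for mt-Nd5 to −0.19 for mt-Nd4 and a median of −0.31, beside 0.00 for all tested genes. At the unadjusted limit of the edgeR test 0 of the 8 passed, and the lowest adjusted p was 0.733. In DESeq2 and in limma-voom without surrogate variables 0 passed as well. With surrogate variables 6 passed in limma-voom, a fit for which the share of all tested genes is not given here. For 0 of the 8 did the groups separate. Over 8 genes the 0 past the edgeR limit and the 0 that separated are near the shares of all tested genes (2.35% lower, 3.95% higher and 6.57% wholly below wt). The samples were also further apart than for the nuclear classes. The class median of gene-centred log2 CPM was 0.27, −0.84 and 0.03 in Postn-/- and −0.13, 0.19 and 0.43 in wt. Without Postn-/- replicate 2 the median log2 fold change of the 8 was −0.04, 6 were below 0, mt-Nd4 was at 0.06 and mt-Co1 at 0.04. Without Postn-/- replicate 1 it was −0.53, and 2 genes were lower at the unadjusted limit, beside 2.02% of all tested genes.

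Among the complex I subunits, mt-Nd1 was at 1010, 426 and 936 normalized CPM in Postn-/- against 829, 939 and 1160 in wt (log2 fold change −0.31, unadjusted p = 0.348). For mt-Nd2 the values were 270, 119 and 240 against 195, 283 and 291 (−0.29, unadjusted p = 0.359), and for mt-Nd5 659, 316 and 506 against 517, 641 and 801 (−0.40, unadjusted p = 0.176). In each of these 3 genes Postn-/- replicate 2 was lowest and wt replicate 3 highest. Postn-/- replicate 2 was also the lowest sample for mt-Nd4 and mt-Nd6. For mt-Nd4 the values were 338, 159 and 286 against 242, 295 and 358 (log2 fold change −0.19, unadjusted p = 0.492). For mt-Nd6, the only mitochondrial member encoded on the other strand, they were 148, 64.6 and 116 against 102, 156 and 160 (−0.35, unadjusted p = 0.281). The library kit does not mark strand, so that reads of transcripts opposite mt-Nd6 may be counted for it as well.

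mt-Cytb, the subunit of complex III that binds ubiquinol, was at 1440, 744 and 1230 normalized CPM in Postn-/- against 1350, 1260 and 1670 in wt (log2 fold change −0.33, unadjusted p = 0.217). mt-Co1, the catalytic subunit of complex IV, was at 1480, 631 and 1230 in Postn-/- against 933, 1400 and 1610 in wt (log2 fold change −0.24, unadjusted p = 0.481). Postn-/- replicate 2 was lowest and wt replicate 3 highest for both. The 2 ribosomal RNAs of the mitochondrial genome, which are no members, took 0.151%, 0.094% and 0.153% of the counts in Postn-/- and 0.169%, 0.209% and 0.209% in wt, so that here the groups did not overlap.

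**Figure D4:**
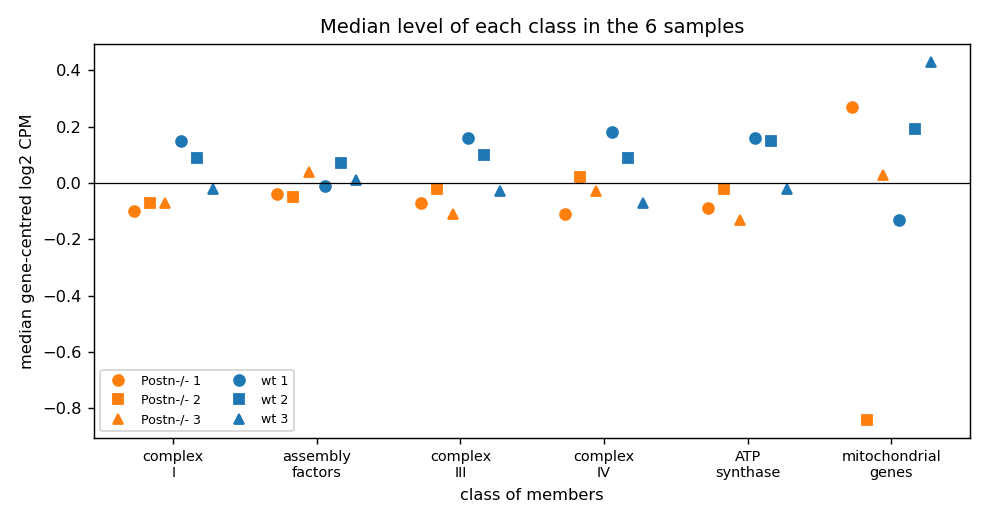
Median over the tested genes of each class of gene-centred log2 CPM in 3 Postn-/- (orange) and 3 wt (blue) samples. Nuclear classes stay between −0.13 and 0.18, while the mitochondrial genes range from −0.84 in Postn-/- replicate 2 to 0.43 in wt replicate 3.

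Not all mitochondrial genes could be measured in these counts. mt-Co2, mt-Co3, mt-Atp6, mt-Atp8 and mt-Nd4l were listed at 0 in all 6 samples, although they lie between mt-Co1 and mt-Nd4 on the same strand. mt-Nd3, which lies among them, was at 3.15 to 4.98 normalized CPM (log2 fold change −0.31, unadjusted p = 0.223). Only uniquely aligned reads were counted, and the annotation holds pseudogenes of mitochondrial origin in the nuclear genome. Of the 50-base words of mt-Co2, mt-Atp6, mt-Co3, mt-Nd3 and mt-Nd4l, 100%, 99.5%, 99.9%, 98.0% and 98.8% also occur in transcripts of such pseudogenes, mainly on chromosome 1. For mt-Nd4 and mt-Co1, which were counted, the share was 62.2% and 51.1%, and for mt-Nd1, mt-Nd6 and mt-Cytb it was 0%. mt-Atp8 was at 0 with a share of 0%, and genome sequence outside annotated transcripts was not searched. The part that shared words have in the zeros was not tested, and levels of mt-Co1, mt-Nd3 and mt-Nd4 may stand for part of each gene only.

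A few 50-base words from the transcripts illustrate this, positioned on the mitochondrial genome of GRCm38, plus strand. Those of mt-Co2 and mt-Co3 occur letter for letter in pseudogenes (Gm13341 and Gm28661 for mt-Co2, Gm28437 for mt-Co3), and that of mt-Cytb in no other annotated transcript. A read from either of the first words matches more than 1 place.
mt-Co2, chrMT:7330-7379: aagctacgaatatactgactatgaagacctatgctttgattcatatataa
mt-Co3, chrMT:8974-9023: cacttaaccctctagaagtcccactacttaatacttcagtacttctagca
mt-Cytb, chrMT:14692-14741: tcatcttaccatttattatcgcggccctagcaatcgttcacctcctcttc

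**Figure D5:**
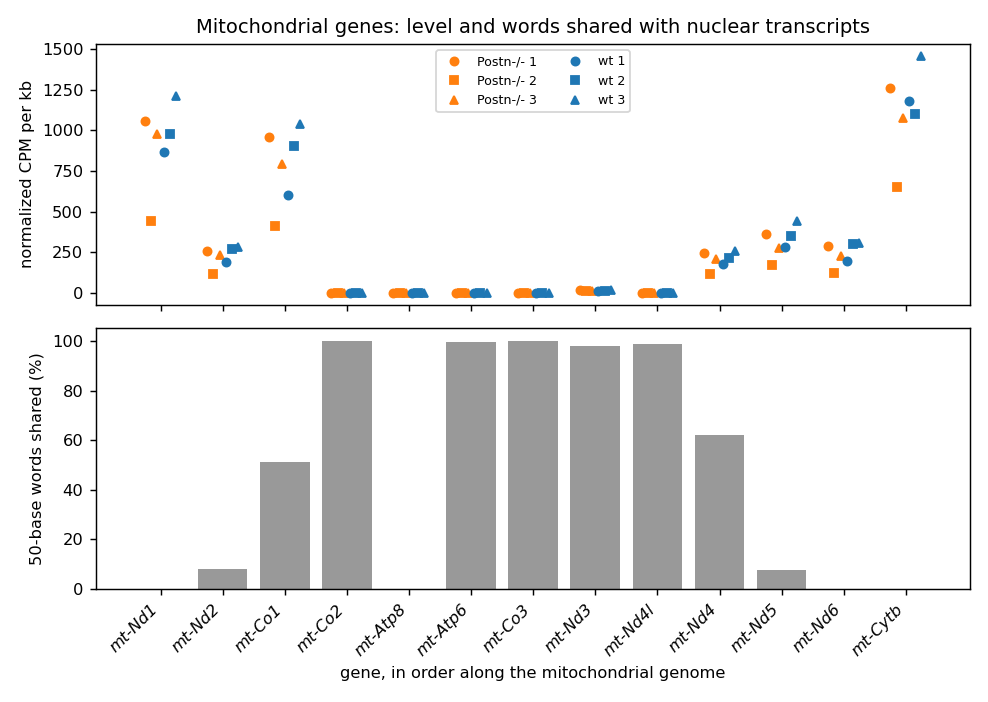
Upper panel, normalized CPM per kilobase of the 13 mitochondrial genes in 3 Postn-/- (orange) and 3 wt (blue) samples, in their order along the mitochondrial genome. Lower panel, the percentage of each gene's 50-base words that also occur in nuclear transcripts, which is at least 98.0% for 4 of the 5 genes at 0 and for mt-Nd3.

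The pattern of Ndufs5 over the 6 samples was most like that of Ndufa5, Ndufv1, Atp5l, Atp5k and Atp5g1, with Pearson correlations of log2 CPM of 0.87, 0.84, 0.83, 0.80 and 0.80. All 5 were lower in every Postn-/- sample, and the 6 samples share libraries and genotypes, so that the correlations are given as a description. At the other end were Uqcrfs1 and Cox5b, both at −0.52.

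Other genes that work with the chain were mostly slightly lower too, though the lists differed. Below 0 were 3 of 4 genes of complex II, 28 of 39 other assembly factors, 10 of 13 genes for uncoupling and antioxidant defence, 15 of 17 of the citrate cycle and 61 of 75 of the mitochondrial ribosome. For cytochrome c, biogenesis regulators and mitochondrial transcription and RNA they were 1 of 3, 9 of 15 and 17 of 28, beside 49.2% of all tested genes. None of the lists held a gene past the adjusted limit of edgeR, a count of 0. Complex II links the chain to the citrate cycle and has 4 subunits. Sdha was at 358, 349 and 381 normalized CPM in Postn-/- against 447, 335 and 390 in wt (log2 fold change −0.11, unadjusted p = 0.43), and Sdhb was at 540, 377 and 470 against 475, 427 and 451 (0.04, unadjusted p = 0.813). The groups overlapped for both, as for Sdhc at −0.08 (unadjusted p = 0.471) and Sdhd at −0.13 (unadjusted p = 0.319). The electron carrier cytochrome c, Cycs, was at 2.49, 5.57 and 3.53 in Postn-/- against 3.92, 4.16 and 4.03 in wt (log2 fold change −0.06, unadjusted p = 0.842). Cyc1, the cytochrome c1 of complex III, had a log2 fold change of 0.04 (unadjusted p = 0.694) and Hccs, which attaches haem to both cytochromes, one of 0.07 (unadjusted p = 0.609). The signs of Sdhb, Cyc1 and Cycs turned when single samples were left out.

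Of 39 tested assembly factors without Ndufaf symbols, 2 were lower at the unadjusted limit, 0 were higher, and the median log2 fold change was −0.06. The 2 were Foxred1, needed for complex I (44.4, 37.4 and 44.8 normalized CPM in Postn-/- against 61.8, 51.1 and 50.1 in wt; log2 fold change −0.36, unadjusted p = 0.0217), and Pet100, needed for complex IV (14.0, 15.7 and 15.3 against 19.5, 17.6 and 19.3; −0.32, unadjusted p = 0.031). Of 28 tested genes for mitochondrial transcription and RNA, 2 were lower and 1 higher, with a median of −0.06. Without wt replicate 1 both medians were −0.04. The lower genes are 5.13% and 7.14% of these lists, beside 2.35% of all tested genes, and without wt replicate 1 they numbered 0 and 2, beside 1.96%, with 0 higher. Slirp, which stabilizes mitochondrial mRNAs, was at 47.1, 50.1 and 45.2 in Postn-/- against 61.4, 65.1 and 57.9 in wt (log2 fold change −0.37, unadjusted p = 0.00584). Polg, the polymerase of mitochondrial DNA, was at 14.1, 13.9 and 14.9 in Postn-/- against 10.7, 12.0 and 10.8 in wt (log2 fold change 0.35, unadjusted p = 0.0286). Neither gene overlapped between groups.

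The mitochondrial ribosome, which translates the mitochondrial mRNAs, had 75 tested proteins with a median log2 fold change of −0.10. Of these 61 were below 0 (81.3%) and 22 lay wholly below wt (29.3%), against 49.2% and 6.57% of all tested genes. At the unadjusted limit of edgeR 3 were lower (4.0%) and 1 was higher, beside 2.35% and 3.95% of all tested genes. Without wt replicate 1, 65 were below 0, 26 lay wholly below wt and 0 passed that limit of edgeR, beside 48.9% below 0, 11.1% wholly below wt, 1.96% lower and 3.49% higher over all tested genes. Mrpl44 was at 50.4, 48.0 and 47.0 normalized CPM in Postn-/- against 66.4, 51.3 and 64.6 in wt (log2 fold change −0.33, unadjusted p = 0.029), and Mrpl3 at 31.4, 32.8 and 30.3 against 21.3, 25.3 and 28.0 (0.34, unadjusted p = 0.0323). Neither overlapped between groups. Of the 17 genes of the citrate cycle and pyruvate dehydrogenase, 15 were below 0, also without wt replicate 1, and the median was −0.13 (−0.07 without that sample). Dlat, a subunit of pyruvate dehydrogenase, went the other way, with 39.4, 35.8 and 42.7 in Postn-/- against 25.7, 27.8 and 32.5 in wt (log2 fold change 0.45, unadjusted p = 0.00853), while Idh3g was at −0.27 (unadjusted p = 0.0639).

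Of 15 tested regulators of mitochondrial biogenesis, 0 passed the unadjusted limit of the edgeR test, which is near the share of all tested genes (2.35% lower and 3.95% higher) for so short a list, and the median log2 fold change was −0.02. The smallest p belonged to Gabpb2, a partner of GABPA, at −0.28 (unadjusted p = 0.0855), and to Tfe3 at 0.23 (unadjusted p = 0.104). Of 13 tested genes for uncoupling, nucleotide exchange and antioxidant defence 0 passed as well, likewise near those shares, and the median was −0.07 (−0.04 without wt replicate 1). The ADP/ATP carriers Slc25a5 and Slc25a4 were at −0.27 (unadjusted p = 0.0924) and −0.19 (unadjusted p = 0.164).

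Gene length moved with the direction. Outside the nuclear and mitochondrial members, the 286 tested genes with up to 700 bases of exon had a median log2 fold change of −0.11. The 10419 with more than 2500 bases had one of 0.02. In the same length classes the nuclear members were at −0.23 (18 genes) and −0.09 (16 genes). Of the 163 other genes with at most 1000 bases and an average above 5 log2 CPM, 8.59% were lower at the unadjusted limit, as were 6 of the 27 members of that kind, whose median was −0.18 beside −0.11. wt replicate 1 was the highest of all 6 samples for 49 of the 85 nuclear members, wt replicate 2 for 21, and Postn-/- replicate 1 was lowest for 30. With a correction for length in the fit, the median of the nuclear members was −0.15 and 10 of them passed the unadjusted limit of edgeR, beside −0.16 and 14 without it. The share of all tested genes in the corrected fit is not given, so that the change in count cannot be set against it. The part of cycling cells, or of cells marked by chondrocyte, fibroblast, osteoblast, blood or muscle genes, in the members' shift was not tested.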

How the data were processed

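Members and lists were chosen with earlier results of these data known. Single-end reads of 50 bases had been mapped by the authors with STAR 2.0.4b, using Ensembl release 76, and only reads with 1 position and 1 gene entered the table that featureCounts 1.4.5 made. The authors deposited counts per gene without normalization; the CPM and RPKM columns beside them were not used, and the normalized CPM given here were computed from the counts. The labels list another build, but positions of 99.9% of the matched genes overlapped those of GRCm38, the build used here. The library kit does not mark strand. Symbols came from GENCODE M21, which matched 40340 of 41388 identifiers (97.5%).

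A gene had to exceed 1 CPM in 2 or more samples, and 355 rRNA genes were set aside. The genotypes were compared with the quasi-likelihood test of edgeR 4.0.16 (R 4.3.3) after TMM scaling, with Benjamini-Hochberg adjustment over 14533 genes; every unadjusted p is from this test unless another is named. SE is the size of the log2 fold change divided by the root of F. Alternatives used DESeq2 1.42.0, limma 3.58.1 and sva 3.50.0. All 15 pairs of libraries differed by more than sampling noise (chi-square per degree of freedom 36.5 to 110). Shared words were 50-base stretches searched in GENCODE M21 transcripts. Named genes were Ndufs5, all mitochondrial genes, nuclear members with an unadjusted p of at most 0.05, the extremes of each class, the isoform pairs, the 5 highest levels per kilobase, complex II, Cycs and the 2 smallest p of each other list.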

Additional observations from a re-analysis of the deposited data

How the results depend on the processing

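Under 16 other settings 0 nuclear and 0 mitochondrial members had an adjusted p of at most 0.05. Under 1 more, chosen after the data were seen and run for nuclear members only, 0 nuclear members did. The median of the nuclear members lay between −0.17 and −0.10 where no sample was left out and between −0.20 and −0.10 with each left out. Their count at an unadjusted p of at most 0.05 was 10 to 20 and, with each sample left out, 4 to 17. Of the 14 members called in edgeR, 11 were also among the 11 of DESeq2, 13 among the 20 of limma-voom with 2 surrogate variables, and 4 among the 4 without Postn-/- replicate 1. The overlap was smaller elsewhere, with 8 among the 14 without Postn-/- replicate 2, 6 among the 8 without wt replicate 2 and 8 among the 10 with no filter on low counts. The median of the mitochondrial members ran from −0.53 to −0.04 with each sample left out, their share of counts, as a log2 ratio, from −0.50 to −0.04, and their count from 0 to 2. That count was 6 in limma-voom with surrogate variables and 1 with no filter on low counts. Shares of all tested genes at this limit are given only for the main edgeR fit and the fits with a sample left out. Counts under other settings therefore stand without their background. Ndufs5 stayed at −0.46 to −0.35 with each sample left out. With reads of pseudogenes added, it was −0.18, and of the 14 nuclear members past the unadjusted limit 13 remained past it and Ndufa12 joined them.

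Deviations of same-numbered samples correlated at 0.0824, 0.155 and 0.143, each highest with its own number, so that by the limit of 0.1 for every pair the numbers were not taken to pair the samples. With the replicate block 12 nuclear members had an unadjusted p of at most 0.05, 11 of them among the 14, and the median was −0.15. For this fit too the share of all tested genes is not given. The block gave −0.36 for the mitochondrial median and −0.41 for Ndufs5.

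Cox6b2 was at −0.01 with DESeq2's size factors and with its Wald test, −0.20 and −0.21 in limma-voom without and with surrogate variables, −0.03 with no filter, −0.19 with the replicate block, 0.00 with length correction and −0.19 with both, and from −0.83 to 0.35 with a sample left out. Cox8a was at 0.05 in limma-voom without surrogate variables, 0.01 with a stricter filter, 0.05 with length correction, 0.05 with length correction and block, and from −0.07 to 0.11 with a sample left out. Sdhb was at 0.00 with length correction and at −0.02 with the block added, and from −0.09 to 0.16 with a sample left out. With a sample left out, Cyc1 ran from −0.01 to 0.09, Cycs from −0.43 to 0.18, Ndufaf6 from −0.18 to 0.33, Cox4i2 from −0.17 to 0.60, mt-Nd4 from −0.43 to 0.06 and mt-Co1 from −0.50 to 0.04. The cause was not tested. Counts were low, at most 107 in a sample, for Cox6b2, Atp5g2, Cox7a1, Cox7b2, Cox8b and Cox8c.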

Other observations

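Within the complexes, core or F1 subunits and the other subunits were also set apart, a grouping made after the values were seen and given without a test. The 7 core subunits of complex I in the nucleus had a median log2 fold change of −0.09 and the 29 accessory ones −0.18. In complex III the 3 of the core, Uqcrc1, Uqcrc2 and Uqcrfs1, had a median of 0.01, and the 5 small subunits one of −0.27, each of them below 0. In ATP synthase the 5 subunits of F1 had a median of −0.07 and the 12 others −0.17. Over these complexes 13 of 46 accessory or membrane subunits and 1 of 15 core or F1 subunits, Ndufv1, were lower at the unadjusted limit of 0.05, beside 2.35% of all tested genes. Without wt replicate 1 there were 5 (Ndufs5, Ndufa5, Uqcr10, Atp5k and Atp5g1) and 0. The 15 also had longer exons, with a median of 1990 bases against 1240, and the part of length in this was not tested.

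Of the 89 nuclear members 38 had no 50-base word in common with another gene. The 20 that shared at least 10% of their words had a median log2 fold change of −0.17 and the 65 tested others −0.14. In 9 members the shared words lay in pseudogenes by at least 10%. Adding the pseudogenes' reads moved Ndufs5 most, from −0.41 to −0.18, then Atp5g2 from −0.36 to −0.26, while Cox7c went from −0.37 to −0.43.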
